A study of Mus musculus with 3 samples.

Results

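The forkhead genes were described by RNA-Seq in undifferentiated EL 16.7 mouse ES cells. The members were the genes whose symbol is Fox followed by a subfamily letter from a to s and a number, which gave 44 of the 24421 counted genes. There was 1 library for each of 3 conditions: a control shRNA (scramble), and 2 shRNAs against the mouse nucleoporin NUP153, shRNA-1 (KD-1) and shRNA-2 (KD-2). The cells were female, of an F2 background labelled 129S1/CastEiJx 129S1, and were labelled wild type in control and as knockdowns otherwise. All 3 cultures received lentivirus, were selected with 2 μg/ml puromycin for 2 days, and grew with LIF on γ-irradiated embryonic fibroblasts (MEFs) from DR4 mice, so that RNA of feeder cells could enter each library. Values given in threes follow the order control, KD-1, KD-2. Because each condition is a single library, a pair of libraries gives no replicate error and no test, and the KD-1 and KD-2 comparisons share the control library.

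Forkhead proteins are transcription factors that share a winged-helix domain with which they bind DNA. FOXA factors open chromatin in the endoderm, FOXC, FOXF and FOXL1 act in mesoderm and its mesenchyme, FOXH1 carries Nodal signals together with SMAD proteins, FOXO factors answer to insulin and AKT, and FOXM1 drives genes of mitosis. Many members are silent or barely transcribed in ES cells and come on in single lineages.

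The libraries held 72344726, 85258834 and 69839336 reads on genes. Nup153, the targeted gene, had 27870, 16451 and 11126 reads, and its scaled reads in the knockdown libraries were 0.504-fold and 0.371-fold of control. Of the 16 fibroblast markers none was at 0 in any library, and they summed to 307, 151 and 634 RPKM (reads per kilobase of exon, scaled to the reads on all genes). The 13 ES cell markers summed to 3626, 4124 and 2880 RPKM. Pou5f1, which defines ES cells, had 35405, 45092 and 32962 reads, and the fibroblast collagen Col3a1 had 54628, 25523 and 114064. Both kinds of marker were thus read in every library, with the fibroblast markers lowest in KD-1 and highest in KD-2. Whether reads of the fibroblast markers came from feeder cells or ES cells was not tested.

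The sequence at the start of the genes is shown first for 6 members. The 4 members without a read had few CpG, and the 4 mesenchymal members with a window had more. The RefSeq start windows used here, on GRCm38.p6, matched 28 members with 33 windows, each of 300 bases (250 before and 50 after the start). Below are the 150 bases before the start, 5′ to 3′ in the direction of the gene, with every CpG in capitals. Foxc1, Foxf2, Foxd1 and Foxd2 were members of the mesenchymal group described later, Foxd3 is a factor of pluripotent cells, and Foxi1, a regulator of ionocytes, had no read.
Foxc1, chr13:31806496-31806645, + strand: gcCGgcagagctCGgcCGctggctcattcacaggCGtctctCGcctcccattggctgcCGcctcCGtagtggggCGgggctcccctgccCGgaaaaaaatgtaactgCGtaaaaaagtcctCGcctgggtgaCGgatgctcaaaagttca
Foxf2, chr13:31625666-31625815, + strand: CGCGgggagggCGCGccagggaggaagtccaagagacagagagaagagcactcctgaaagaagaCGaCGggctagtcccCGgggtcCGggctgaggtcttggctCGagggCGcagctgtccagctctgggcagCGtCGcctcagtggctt
Foxd1, chr13:98354095-98354244, + strand: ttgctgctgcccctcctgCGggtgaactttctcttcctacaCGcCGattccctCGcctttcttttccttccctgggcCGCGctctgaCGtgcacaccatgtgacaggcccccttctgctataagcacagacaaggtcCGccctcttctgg
Foxd2, chr4:114908899-114909048, - strand: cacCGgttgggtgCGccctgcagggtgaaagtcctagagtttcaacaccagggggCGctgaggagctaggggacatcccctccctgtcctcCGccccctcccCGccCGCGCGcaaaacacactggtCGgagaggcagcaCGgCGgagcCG
Foxd3, chr4:99656149-99656298, + strand: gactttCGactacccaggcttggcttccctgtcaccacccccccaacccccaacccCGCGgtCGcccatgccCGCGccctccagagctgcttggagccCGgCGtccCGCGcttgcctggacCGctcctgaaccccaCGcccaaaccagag
Foxi1, chr11:34208090-34208239, - strand: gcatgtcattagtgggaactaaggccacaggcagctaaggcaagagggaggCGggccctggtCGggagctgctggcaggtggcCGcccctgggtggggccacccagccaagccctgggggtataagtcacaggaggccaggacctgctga

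In these stretches Foxc1, Foxf2, Foxd2 and Foxd3 held 12 CpG each, Foxd1 held 8 and Foxi1 held 3. Over the whole windows the members had a median of 22 CpG, against 13 over the 20788 windows of 17224 counted genes. The counts ran from 3 at Foxr2 to 59 at Foxk2. At least 20 CpG were found in 17 of 33 member windows, against 36.3% of all windows. The 4 members without a read had 5 to 12 CpG, below the median of all windows, and the 4 mesenchymal members with a window had 15 to 32. Among members with more reads, Foxr2 and Foxn3 also had few CpG, though the Foxn3 window lies inside the gene. Foxl2, Foxa1 and Foxi3, with few reads, had 27, 26 and 31 CpG. CpG number and level thus did not follow each other throughout.

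Motifs were searched in the same windows on both strands. The forkhead motif TGTTTAC was found in 1 member window (Foxa1), against 3% of all windows, and TGTTTGC in 2 (Foxj3 and Foxp1), against 4.54%. The TATA box TATAAA was in 3 of 33 member windows, against 12.2% of all, and the GC box GGGCGG in 24 of 33, against 46.7% (the GC box itself holds a CpG). These are matches of letters in a short window and were not tied to any binding here.

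Foxh1, Foxn2 and Foxo4 led the family in control. Of the 44 members, 40 had a read in any library and 33 had a mean of at least 10 reads, the minimum for a ratio. In control 16 members were above 1 RPKM, which is 36.4% of the members against 45.96% of all genes with a known exon length. In KD-1 15 members were above 1 RPKM, and in KD-2 16. Family reads were few, 24722, 30513 and 27352, or 0.0342%, 0.0358% and 0.0392% of the reads on genes. The 5 members with most reads held 66.2% of the family's reads in control, and 65.9% and 57.3% in the knockdown libraries.

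**Figure D1:**
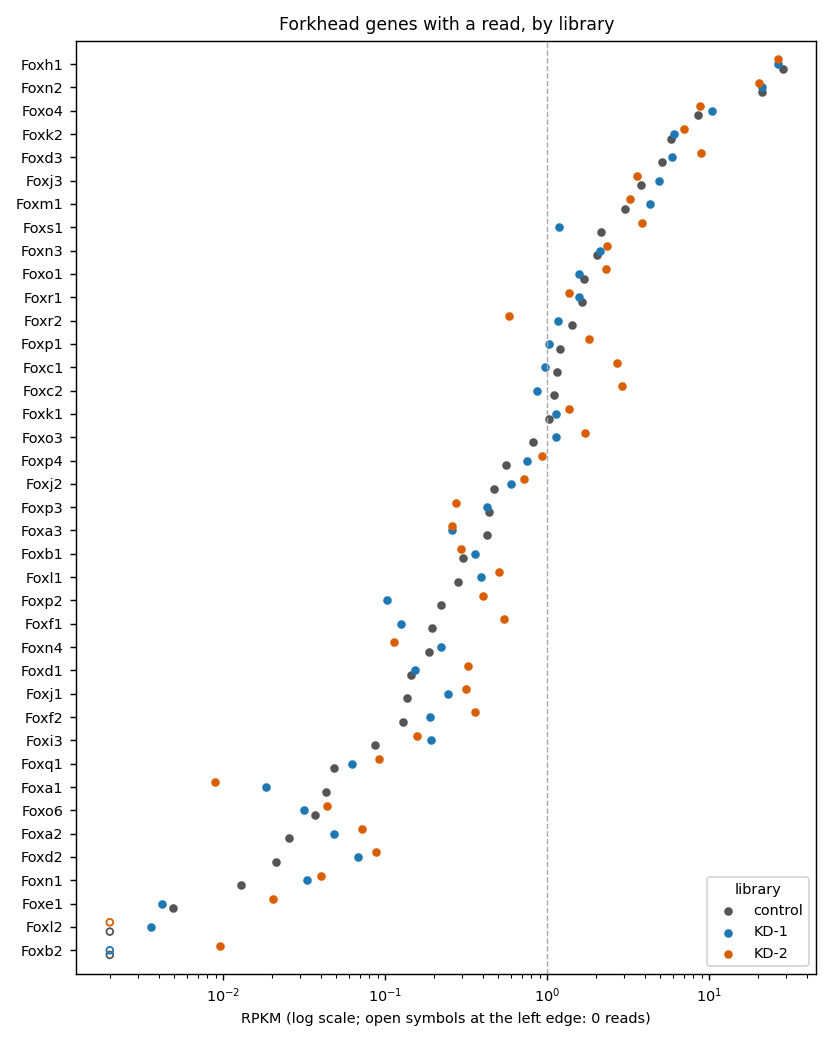
Level of 39 forkhead genes with a read in any library (x axis, RPKM, log scale), ordered by control, with 1 point for each library and a dashed line at 1 RPKM. Foxh1 and Foxn2 lie above 20 RPKM in all 3 libraries, and Foxc1, Foxc2, Foxf1, Foxp2 and Foxs1 have their KD-2 point to the right of both others.

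Foxh1, the partner of SMAD2 and SMAD3 downstream of Nodal, had the highest level at 28.5, 26.7 and 26.7 RPKM. Foxn2, a broadly transcribed member, followed with 21.4, 21.2 and 20.4 RPKM. Both kept their places above all other members in every library. Foxo4, an X-linked FoxO factor, had 8.61, 10.4 and 8.81 RPKM. Foxk2, which binds promoters of metabolic and autophagy genes, had 5.86, 6.08 and 7.04 RPKM, and Foxd3, which keeps pluripotent and neural crest cells undifferentiated, had 5.13, 5.89 and 8.89 RPKM. Foxj3 (3.83, 4.92 and 3.58 RPKM) and Foxm1 (3.05, 4.32 and 3.24 RPKM) were highest in KD-1. Foxs1 (2.15, 1.18 and 3.87 RPKM), Foxn3 (2.05, 2.13 and 2.36 RPKM) and Foxo1 (1.69, 1.58 and 2.33 RPKM) completed the 10 highest members of control. Foxs1 spread widest among these 10.

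At the other end, Foxd4, Foxe3, Foxi1 and Foxi2 had no read in any library. A count of 0 allows up to 3 reads in a library, or between 0.0132 and 0.0495 RPKM for these genes, counting error only. Another 7 members had reads but fell below the minimum: the endoderm factors Foxa1 (10, 5 and 2 reads) and Foxa2 (4, 9 and 11 reads), the thyroid factor Foxe1 (1, 1 and 4), the thymus factor Foxn1 (3, 9 and 9), Foxo6 (7, 7 and 8), the ovary factor Foxl2 (0, 1 and 0) and Foxb2 (0, 0 and 1). No ratio is given for these 11 members.

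Single libraries were compared with the ratio of upper-quartile scaled reads and its exact 95% interval from counting (Clopper-Pearson). This interval covers counting error only and is not adjusted for the number of genes. A gene is called higher or lower where the fold exceeds 1.5 in either direction and the interval leaves out 1. Since this scaling and RPKM use different totals, a ratio can differ slightly from the quotient of RPKM values. In KD-1 against control 2 of the 33 members were higher (Foxd2 and Foxj1) and 3 lower (Foxa3, Foxp2 and Foxs1), or 6.06% and 9.09%, where 6.48% and 4.58% of all 16670 genes were. In KD-2 against control 12 members were higher and 4 lower, or 36.4% and 12.1%, where 14.9% and 8.6% of all genes were. Foxd2 (4, 15 and 16 reads) is among the higher members of both comparisons with control. It met the minimum only through the knockdown libraries in which it was high, so its calls add no weight to these shares. In KD-2 against KD-1 8 were higher and 4 lower, or 24.2% and 12.1%, where 15% and 12% of all genes were.

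The median log2 ratio of the 33 members was 0.09 for KD-1 and 0.44 for KD-2 against control, and 0.12 for KD-2 against KD-1, where that of all genes was 0.02, -0.02 and -0.12. Scaling moved the balance of all genes: of the calls in KD-2 against control 63.4% were higher ones with the upper quartile and 84.9% with library totals, which also moved the median of all genes to 0.14 and that of the members to 0.59. In KD-1 against control the share went from 58.6% to 47.8% with DESeq2's size factors, and in KD-2 against KD-1 from 55.6% to 69.9% with these and to 77.2% with totals. The members' median in KD-2 against KD-1 became 0.22 with the size factors and 0.28 with totals, and that in KD-1 against control 0.02 with the size factors. No member called by the upper quartile changed direction under another scaling.

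**Figure D2:**
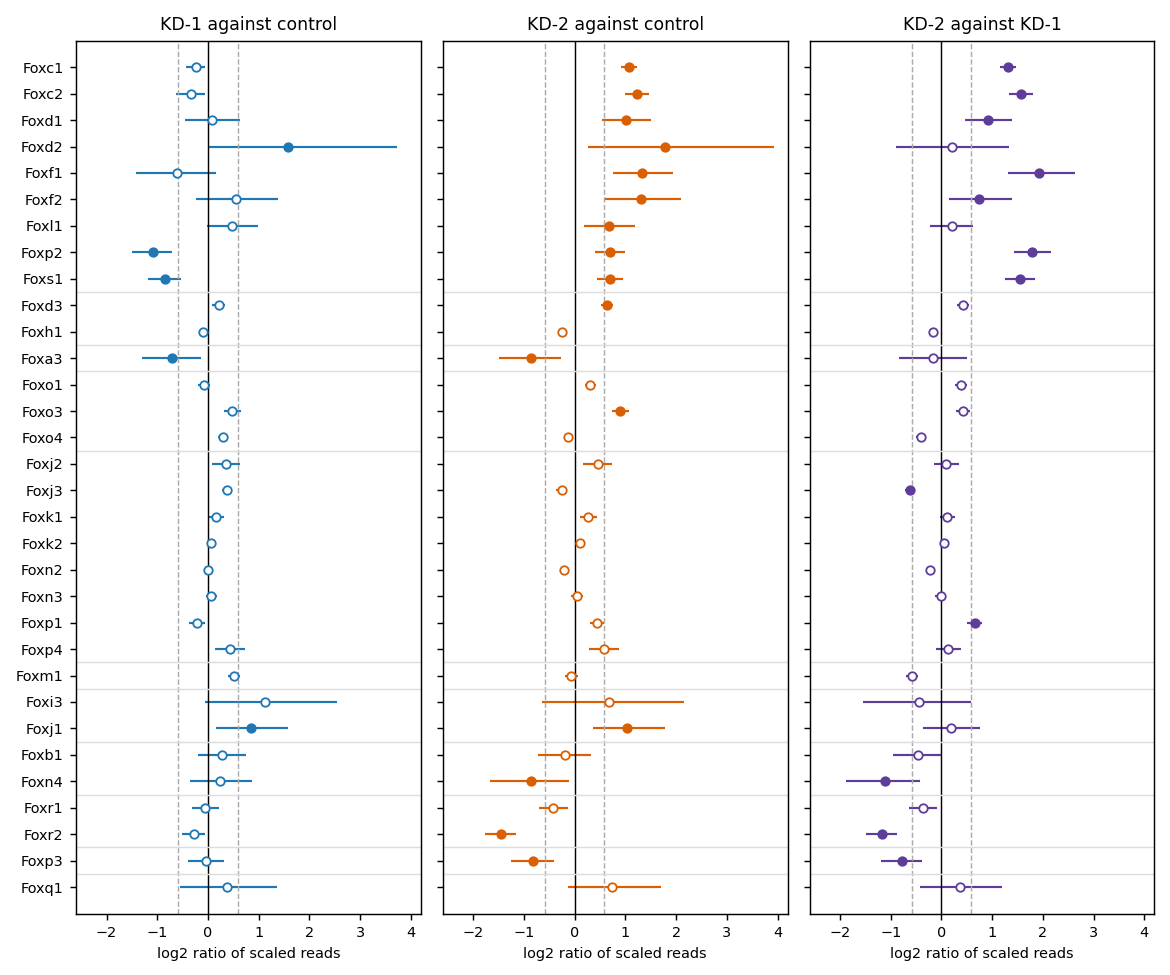
Ratio of scaled reads for 32 forkhead genes in each pair of libraries (x axis, log2), with horizontal lines for the 95% counting interval, filled symbols for calls, and dashed lines at a fold of 1.5. Grey lines separate the role groups, and the 9 mesenchymal genes at the top are all filled in KD-2 against control, Foxd2 with 4 reads in control.

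The group of 9 members of mesenchyme and of paraxial or lateral mesoderm was drawn up with earlier results of these data known, so its counts describe these libraries and are not independent evidence of a direction. All 9 met the minimum of reads, but Foxd2 met it only through the knockdown libraries in which it was high. Of the 8 without Foxd2, 8 were called higher in KD-2 than in control, with a median log2 ratio of 1.04. In KD-1 against control 2 of the 8 were lower and none higher (median -0.29), and in KD-2 against KD-1 7 were higher (median 1.43). Of all genes 14.9% were higher in KD-2 than in control and 15% higher in KD-2 than in KD-1. In KD-1 against control 4.58% of all genes were lower and 6.48% higher. The share of the 9 members in the family's reads was 5%, 3.73% and 9.73%. Among fibroblast markers 9 of 16 were lower in KD-1 than in control, 14 of 16 were higher in KD-2 than in control, and 16 of 16 were higher in KD-2 than in KD-1, with medians of -0.63, 0.78 and 1.6. Summed over each list, scaled reads of the mesenchymal members were 0.787-fold (KD-1) and 2-fold (KD-2) of control, and those of the fibroblast markers 0.518-fold and 1.88-fold. In KD-1, 4 of 9 members (Foxd1, Foxd2, Foxf2 and Foxl1) had a log2 ratio to control above 0, and none of the 16 markers did. The intervals of Foxd1, Foxf2 and Foxl1 held 1, and Foxd2 had 4 reads in control. No difference from the markers was read from these signs. The part of fibroblast RNA in these ratios was not tested. Fewer cells of a type and less RNA per cell cannot be told apart in such bulk samples.

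Foxc1 and Foxc2, which pattern paraxial mesoderm and vessels, were the mesenchymal members with most reads beside Foxs1. Foxc1 had 490, 485 and 1110 reads. Its ratio to control was 0.845 in KD-1 (0.744 to 0.96) and 2.1 in KD-2 (1.89 to 2.34). Foxc2 had 218, 202 and 549 reads, a ratio of 0.791 in KD-1 (0.65 to 0.962) and of 2.34 in KD-2 (2 to 2.75). For both genes KD-2 stood far above the other libraries, and KD-1 lay slightly below control.

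Foxf1 and Foxf2 act in mesenchyme around the gut and lung. Foxf1 had 34, 26 and 92 reads, with ratios to control of 0.657 (0.376 to 1.12) in KD-1 and 2.49 (1.68 to 3.84) in KD-2. Foxf2 had 22, 38 and 59 reads, with a ratio of 2.46 (1.5 to 4.27) in KD-2. Foxf2 was also above control in KD-1 by its reads, but the interval of that ratio, 1.46, ran from 0.85 to 2.62. Foxl1, of the mesenchyme below the gut epithelium, had 55, 90 and 95 reads and ratios of 1.39 (0.988 to 1.99) and 1.6 (1.14 to 2.28). Foxd1, a factor of kidney stroma, had 53, 66 and 115 reads, nearly level with control in KD-1 at 1.06 (0.729 to 1.56) and 2.01-fold in KD-2 (1.44 to 2.85). Foxd2 had 4, 15 and 16 reads and ratios of 2.97 (1.02 to 13.2) and 3.43 (1.2 to 15.3), the widest intervals among the members called.

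Foxs1 and Foxp2 were called on opposite sides of control, below it with shRNA-1 and above it with shRNA-2. Foxs1 (chromosome 2, 152931898 to 152933208, - strand), a gene of pericytes and sensory neurons, had 204, 132 and 354 reads. Its ratios to control were 0.553 (0.44 to 0.691) and 1.61 (1.35 to 1.92). Foxp2 (chromosome 6, 14901349 to 15441977, + strand), best known from neurons and lung and placed in this group for the list used here, had 155, 85 and 271 reads, with ratios of 0.47 (0.355 to 0.614) and 1.62 (1.33 to 1.99). Between the knockdown libraries Foxs1 differed 2.91-fold (2.38 to 3.59) and Foxp2 3.45-fold (2.71 to 4.48). The order of the libraries, lowest in KD-1 and highest in KD-2, is that of the fibroblast markers above.

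Several of these genes lie in clusters on GRCm38. On chromosome 13 Foxq1 (31556134 to 31560976), Foxf2 (31625816 to 31631403) and Foxc1 (31806633 to 31812476) lie on the + strand, with 64.8 kb and 175 kb between them. On chromosome 8 Foxf1 (121084386 to 121088144), Foxc2 (121116171 to 121118895) and Foxl1 (121127940 to 121130644) lie on the + strand with gaps of 28 kb and 9.04 kb. All members of the chromosome 8 cluster were higher in KD-2, and of the chromosome 13 cluster Foxf2 and Foxc1 were. The call of Foxl1 was lost with a fold above 2 and at assumed dispersions of 0.01 and 0.04. Foxq1, a factor of hair and stomach, had 17, 26 and 31 reads and a ratio of 1.68 in KD-2, whose interval of 0.909 to 3.26 held 1. Its exons share 3200 bases with A530084C06Rik on the opposite strand, so its reads may belong to either gene. Foxd2 and Foxe3 on chromosome 4 lie 16.3 kb apart on the - strand, and Foxe3 had no read.

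**Figure D3:**
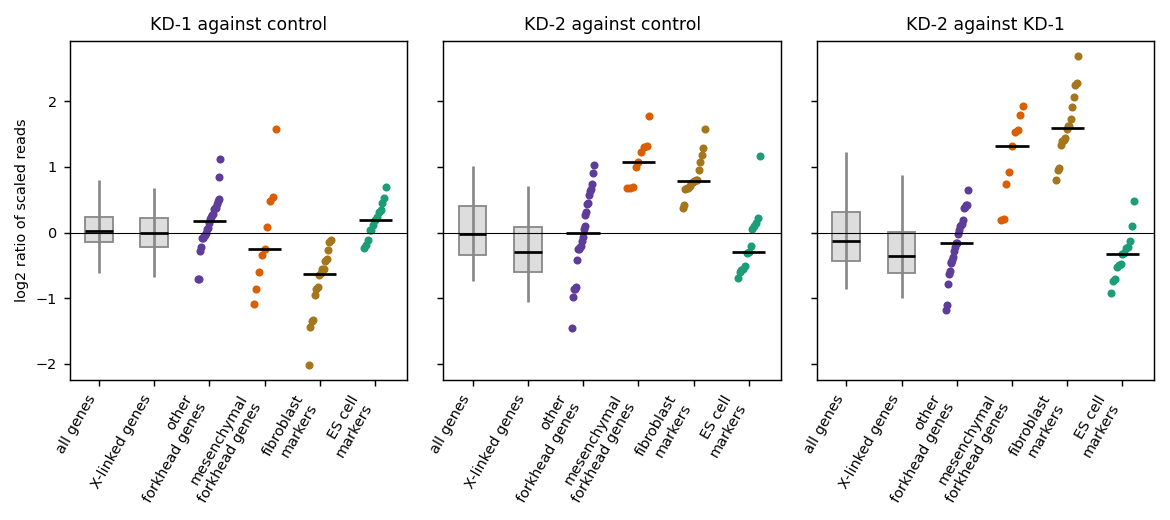
Ratios of scaled reads (y axis, log2) in each pair of libraries for all 16670 genes and 632 X-linked genes (boxes from the 25th to the 75th percentile, lines from the 5th to the 95th, median in black) and for 24 other forkhead genes, 9 mesenchymal forkhead genes, 16 fibroblast markers and 13 ES cell markers (1 point a gene, black bar for the median). The mesenchymal forkhead genes and the fibroblast markers lie all above 0 in both comparisons of KD-2, and all 16 markers lie below 0 in KD-1 against control.

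Of the other 35 members 24 passed the minimum, and their summed scaled reads were 1.07-fold of control in KD-1 and 0.976-fold in KD-2. In KD-1 against control 1 of the 24 was higher and 1 lower, and in KD-2 against control 3 were higher and 4 lower. Of all genes 6.48% and 4.58% were called in KD-1 and 14.9% and 8.6% in KD-2, each time with the higher calls first, and nothing about the 24 members was read from these small counts.

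The members of pluripotent cells differed. Foxd3 had 862, 1167 and 1443 reads, with a ratio of 1.16 in KD-1 (1.06 to 1.26) and a call in KD-2 at 1.55 (1.43 to 1.69). Foxh1 had 2818, 3104 and 2544 reads and ratios of 0.94 (0.893 to 0.99) and 0.838 (0.794 to 0.885), short of the fold required. Of 16 partners and targets of Foxh1, 15 passed the minimum. In KD-1 1 was higher (Eomes), and in KD-2 2 were higher (Eomes and Gsc) and 4 lower (Tdgf1, Lefty1, Lefty2 and Otx2). That was 6.67% higher in KD-1, beside 6.48% of all genes. In KD-2 it was 13.3% higher and 26.7% lower, beside 14.9% and 8.6% of all genes. The median log2 ratio of the 15 was -0.03 and -0.07. Lefty2, an inhibitor of Nodal, had 50702, 52751 and 23447 reads and Lefty1 had 13455, 13779 and 6605, which was 0.429-fold and 0.456-fold of control in KD-2. Nodal itself (5256, 6668 and 5585 reads) and Smad2 (7136, 7761 and 7232 reads) had ratios within 1.5-fold in both knockdown libraries. Tdgf1, the Nodal coreceptor, is also 1 of the 13 ES cell markers, of which 2 were lower and 1 higher in KD-2. This was 15.4% and 7.69% of the markers, beside 8.6% and 14.9% of all genes.

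Among FoxO factors, which leave the nucleus when AKT phosphorylates them, Foxo3 was higher in KD-2. Foxo3 had 442, 722 and 890 reads and ratios of 1.39 (1.24 to 1.57) and 1.87 (1.67 to 2.1). Foxo1 had 1056, 1170 and 1409 reads and ratios of 0.946 (0.869 to 1.03) and 1.24 (1.14 to 1.34). Foxo4 had 1970, 2815 and 1946 reads and ratios of 1.22 (1.15 to 1.29) and 0.917 (0.861 to 0.977). The 3 genes thus ordered the libraries differently, and only Foxo3 was called. Of 21 regulators of FoxO none was called in KD-1. In KD-2 Akt1 was higher (1.63-fold) and Ywhae and Stk4 were lower (0.636-fold and 0.623-fold). These were 4.76% and 9.52% of the list, beside 14.9% and 8.6% of all genes. The list had median log2 ratios of -0.01 and -0.25. Of 22 known FoxO targets 19 passed the minimum. In KD-1 Irs2 was higher at 1.55-fold, and in KD-2 Irs2 (2.55-fold), Bbc3 (1.8-fold), Bcl6 (1.78-fold) and Pink1 (1.75-fold) were, with none lower. The higher ones were 5.26% of the targets in KD-1 and 21.1% in KD-2, beside 6.48% and 14.9% of all genes. The 19 targets had a median log2 ratio of 0.12 with shRNA-1 and 0.23 with shRNA-2. The targets with most reads, Sod2, Txnip, Cat and Tnfsf10, were called in neither knockdown.

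Foxm1, which activates genes of G2 and mitosis, had 1026, 1714 and 1053 reads. It was at 1.43-fold of control in KD-1 (1.32 to 1.54) and 0.953-fold in KD-2 (0.874 to 1.04), and neither was a call. Of its 15 targets none was called in KD-1 and 4 were lower in KD-2: Top2a (0.59-fold), Ccnb1 (0.651-fold), Birc5 (0.653-fold) and Cdc25b (0.655-fold). These 4 were 26.7% of the targets, beside 8.6% of all genes called lower in KD-2. The median log2 ratio of the 15 targets was 0.03 with shRNA-1 and -0.4 with shRNA-2. The 13 ES cell markers had medians of 0.19 and -0.29.

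With the upper-quartile scaling the broadly transcribed members stayed within 1.5-fold of control in both knockdown libraries, from 0.861 to 1.35 in KD-1 and from 0.838 to 1.49 in KD-2. With library totals some passed this fold in KD-2, among them Foxp1 (log2 ratio 0.59). With the upper quartile their calls were between the knockdowns. Foxp1, with 683, 689 and 996 reads, was 1.57-fold higher in KD-2 than in KD-1 (1.43 to 1.74). Foxj3, with 1581, 2395 and 1426 reads, was at 0.648-fold (0.606 to 0.692), a call that was lost with TMM scaling, DESeq2's size factors and library totals. It was also lost with a fold above 2, at a dispersion of 0.04 and with the upper quartile of genes that met the minimum. Foxn2 had 7856, 9189 and 7258 reads, Foxk2 2132, 2607 and 2471, and Foxn3 1197, 1468 and 1333. None of these 3 was called in any pair of libraries.

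Lineage members at low levels gave the remaining calls. Foxa3, the hepatic FoxA factor, had 63, 45 and 37 reads, with ratios of 0.613 (0.406 to 0.908) and 0.549 (0.353 to 0.831). Foxa3 was the member called lower in both knockdown libraries, and both calls were lost with a fold above 2 and at dispersions of 0.01 and 0.04. Of 11 FoxA targets 4 passed the minimum, of which none was called in KD-2. Among those higher in KD-1 were Apob (3.06-fold) and Hnf4a (1.86-fold). Apob had 92, 331 and 146 reads. The 10 endoderm markers summed to 2.06, 2.5 and 3.2 RPKM, and 7 passed the minimum with 1 called higher with shRNA-1 and 2 with shRNA-2. Of 7 mesoderm markers 5 passed, and Kdr and Eomes were higher in both knockdown libraries. The higher ones were 14.3% and 28.6% of the endoderm markers and 40% of the mesoderm markers each time. Of all genes 6.48% and 14.9% were higher, and nothing was read from these small lists.

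Foxj1, the regulator of motile cilia, was called higher in both knockdown libraries, with 26, 55 and 58 reads and ratios of 1.79 (1.11 to 3) and 2.05 (1.28 to 3.43). Of the 7 multiciliated cell markers counted, 6 passed the minimum. None of these was called in KD-2, and Dnaic1 (9, 25 and 10 reads), past the rule in KD-1, reached the minimum only through that library. The KD-1 call of Foxj1 was lost with a fold above 2 and at assumed dispersions of 0.01 and 0.04, and the KD-2 call at 0.04. Foxd2 was also past the rule in both, but it reached the minimum of reads only through these libraries, its call in KD-1 was lost with DESeq2's size factors, and both calls were lost at dispersions of 0.01 and 0.04.

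Foxn4, of retinal and spinal cord progenitors, had 41, 57 and 24 reads and was at 0.549-fold in KD-2 (0.314 to 0.921). That call was lost with library totals, with a fold above 2 and at dispersions of 0.01 and 0.04. Foxb1 (65, 92 and 61 reads) and Foxi3 (8, 21 and 14 reads) had intervals that held 1 in both knockdowns. The neural markers, 5 of 7 above the minimum, had 1 called higher with shRNA-1 and 1 called lower with shRNA-2. Each was 20% of the 5, beside 6.48% and 8.6% of all genes.

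Foxr2 and Foxp3 lie on the X chromosome with Foxo4. Foxr2, silent in most adult tissues outside the germ line, had 333, 321 and 130 reads and ratios of 0.823 (0.704 to 0.962) and 0.363 (0.294 to 0.445), the lowest ratio of any member with a minimum of reads. Foxp3, the factor of regulatory T cells, had 130, 148 and 79 reads and ratios of 0.972 (0.763 to 1.24) and 0.566 (0.421 to 0.752). X-linked genes were lower more broadly in KD-2: 155 of 632 (24.5%, beside 8.6% of all genes) were called lower and 38 higher, with a median log2 ratio of -0.3, while in KD-1 41 were lower and 38 higher (median -0.01). The part of the X chromosome in the ratios of Foxr2 and Foxp3 was not tested. Exons of Foxp3 share 590 bases with Ccdc22 on the opposite strand, which had 1530, 1983 and 1575 reads, and since the strand setting of the counting is not stated in the sources used here, reads of this stretch could not be assigned. On its own strand Foxp3 shares 376 exon bases with Flicr, a gene that was not counted, so reads there may belong to either gene. Foxr1, the autosomal relative of Foxr2, had 235, 266 and 189 reads and no call.

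**Figure D4:**
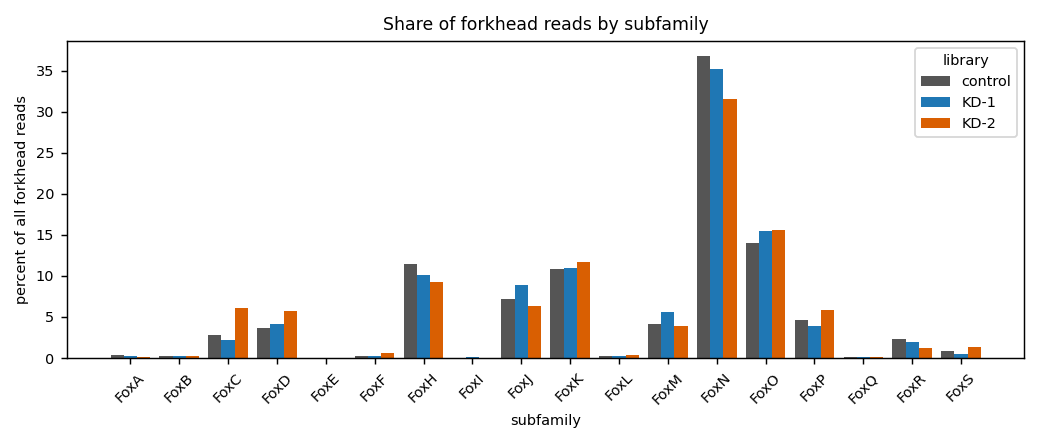
Share of all forkhead reads (y axis, percent) by subfamily (x axis, those reported) in the 3 libraries, 1 bar a library. FoxN holds the largest share in each library, and FoxC goes from 2.86% and 2.25% to 6.07% in KD-2.

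By subfamily, FoxN held 36.8%, 35.1% and 31.5% of the family's reads. FoxC held 2.86%, 2.25% and 6.07%, and FoxD 3.72%, 4.09% and 5.76%. FoxR went the other way, with 2.3%, 1.92% and 1.17%. Members with a single exon block in the annotation, 14 of 44, held 7.77%, 7.2% and 13.6% of the reads, and of these 9 passed the minimum. They include Foxd3 and, of the mesenchymal group, Foxc1, Foxc2, Foxd1, Foxd2, Foxl1 and Foxs1, so this share is not a separate result.

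Both knockdown libraries together were compared with control by edgeR's quasi-likelihood test. It has 1 residual degree of freedom, which comes from the spread between the KD-1 and KD-2 libraries with their different shRNAs. No member was called at an FDR under 0.05, and none of the 40 members with a read had an unadjusted p under 0.05. Over all 21164 genes with a read 2 were called, or 0.00945%, and 264 (1.25%) had an unadjusted p under 0.05. The lowest p among members was that of Foxd2, at 0.0902 with an FDR of 1 by the quasi-likelihood test. DESeq2's Wald test also called no member, and its lowest p was 0.163, for Foxo3.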

How the data were processed

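Total RNA of 3 mouse ES cell libraries was depleted of ribosomal RNA and sequenced as single-end 50 bp reads. Per the methods, the authors trimmed reads with Trim Galore 0.4.1, mapped them with TopHat 2.1.1 to mm10 and kept a mapping quality above 30. They deposited raw counts per gene, without normalization. The submitters' processing notes name HTSeq for counting and the methods another tool. Summary lines, which name no gene, stayed out of all totals, and 23.5%, 25.6% and 23% of the reads in control, KD-1 and KD-2 were in them.

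Reads were scaled by the upper quartile (edgeR 4.0.16, R 4.3.3), log2 ratios used a pseudocount of 0.5, and genes needed a mean of at least 10 reads. The study's fixed dispersion, taken from spike-ins, was not used here. RPKM used exon lengths of GENCODE M21 (GRCm38). Alternatives included DESeq2 1.42.0 size factors, a fold above 2 and fixed dispersions of 0.01 and 0.04. At a fixed dispersion, edgeR's likelihood ratio test with an FDR under 0.05 took the place of the counting interval. Scripts ran in Python 3.11.15 with scipy 1.17.1 and were tested on simulated data. Named members were the 10 highest in control, every member called in any pair of libraries, Foxp2 and Foxa3, the members of both clusters and those without reads. Reads of other members were given to account for the family. Of the other lists, genes called or with most reads were named, some after their values were seen. The members and lists were chosen with earlier results of these data known. Genes withheld from the text are not reported here by name and not drawn by name, and stay in the counts.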

Additional observations from a re-analysis of the deposited data

Results flagged for a closer look

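Foxp2 and Foxs1 were called lower than control in KD-1 and higher than control in KD-2. The log2 ratio of KD-2 to KD-1 was 1.79 for Foxp2 and 1.54 for Foxs1. Foxf1, Foxc2 and Foxc1 ordered the libraries the same way, with log2 ratios of 1.92, 1.56 and 1.32, but were not called in KD-1. With 1 library for each shRNA, the difference between the effects of both shRNAs was not tested.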

How the results depend on the processing

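No member that was called changed direction under any alternative. In KD-1 against control the 2 higher members became 1 with DESeq2's size factors, 1 with a fold above 2, and 0 with a mean of at least 100 reads or a dispersion of 0.01 or 0.04, and the 3 lower ones became 1 with a fold above 2 and 0 with a dispersion of 0.04. In KD-2 against control the 12 higher members became 6 with a mean of at least 100 reads, 7 with a fold above 2 and 0 with a dispersion of 0.04, and the 4 lower ones became 2 with a mean of at least 100 reads, 1 with a fold above 2, 2 with a dispersion of 0.01 and 0 with 0.04. In KD-2 against KD-1 the 8 higher members became 5 with a mean of at least 100 reads, a fold above 2 or a dispersion of 0.04, and the 4 lower ones became 2 with a fold above 2 and 0 with a dispersion of 0.04. Fewer members are tested at a mean of at least 100 reads. The cause of the other moves was not tested. The dispersions of 0.01 and 0.04 stand for replicate variation of 10% and 20%, which these libraries cannot measure. Calls at these dispersions also needed an FDR under 0.05, while the counting interval is not adjusted for the number of genes. A call lost there thus does not show the effect of the dispersion alone. Foxc1, Foxc2, Foxf1, Foxp2 and Foxs1 kept their call in KD-2 against KD-1 under every alternative run for them. The quasi-likelihood test called 4 genes in place of 2 with TMM scaling or a mean of at least 10 reads, none of them a member, and with that minimum Foxd2 had an unadjusted p of 0.0448 by this edgeR test. Foxd2 met that minimum only through the knockdown libraries in which it was high, so nothing was read from this p. An upper quartile taken from the genes that met the minimum, and the mesenchymal counts without Foxd2, were chosen after seeing the data. No paired analysis was possible because each condition has 1 library and the labels give no replicate numbers. Depth limits members below about 100 reads, whose intervals are wide.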
